A study of Mus musculus with 17 samples.

Results

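The 41 genes described here encode the antioxidant enzymes of the glutathione and thioredoxin systems, the superoxide dismutases and catalase, and the regulators Nfe2l2 and Keap1. They were taken by symbol from the 39017 genes of a count table, and all 41 were found and passed the filter on low counts (22242 genes did). RNA was taken from the cortex of NSE-Cre:RiboTag mice. In them Cre, under the promoter of the neuronal enolase gene Eno2, switches the ribosomal protein Rpl22 to an HA-tagged form, and tagged ribosomes were pulled down with their RNA. All groups carried both alleles on the C57BL/6J background. Experimental autoimmune encephalomyelitis (EAE), a mouse model of multiple sclerosis, was induced with a peptide of myelin oligodendrocyte glycoprotein in adjuvant and with pertussis toxin, and the cortex was taken in the chronic phase. There were 4 male control (labelled normal), 5 male EAE, 4 female control and 4 female EAE libraries, 1 per mouse. The mice were adult, the controls healthy and matched for age and sex, and the labels give no age. The design asks how EAE changed these genes in each sex and whether the change differed between the sexes.

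Superoxide dismutases turn superoxide into hydrogen peroxide, which catalase, the peroxiredoxins and the glutathione peroxidases remove. Peroxiredoxins are returned to their active form mostly by thioredoxin, and glutathione peroxidases and S-transferases use glutathione. Thioredoxin reductases and glutathione reductase keep both carriers reduced at the cost of NADPH. Nfe2l2 (NRF2) is the transcription factor that induces many of these genes under oxidative stress, and Keap1 marks it for degradation. In the brain, astrocytes as well as neurons express these enzymes, and astrocytes are known for supplying neurons with precursors of glutathione.

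Total counts per library ranged from 66155142 to 98433383 and were lower in male EAE (70613567 to 76768267) than in male control mice (85800542 to 98433383) without overlap. Levels are given as CPM, counts scaled to a common library size with TMM factors. The summed level of 12 neuron markers was 11872 to 14818 CPM, but markers of other cells were present too, with 8684 to 19903 CPM for 12 astrocyte markers and 6129 to 9281 CPM for 12 oligodendrocyte markers. Input RNA was not analysed here, and in such bulk RNA fewer cells of a type and less RNA per cell cannot be told apart. Male control 4 and female control 2 stood apart from the other controls: male control 4 was the highest of the 17 libraries for 27 of the 41 genes and female control 2 for 4. Male EAE 4 was the lowest library for 21 genes.

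In male mice with EAE, 28 of the 41 genes fell and 1, Gclc, rose, while 12 did not pass the test. Together 29 were called, where 39.6% of all genes were, and the same number had an unadjusted p under 0.05 (70.7% against 44.1%). A gene was called where edgeR's adjusted p, over all 22242 genes, was under 0.1 and its log2 fold change was beyond 0.25 in either direction. The 28 that fell are 68.3% of the genes, and 20.4% of all genes tested were called lower in males. For higher calls the shares were 2.44% and 19.2%. The median log2 fold change was -0.47, against 0.02 over all genes tested, and the values ranged from -1.19 (Gstm1) to 0.41 (Txnip, not called). For 22 of the 41 genes (53.7%) every male EAE library lay below every male control library, which held for 14.3% of all genes. Without male control 4 the call of 28 falls went to 21, since Cat, Glrx2, Gss, Gsto1, Msrb1, Nfe2l2 and Txnrd2 no longer passed, and the median went to -0.34, while 13.0% of all genes were called lower. Without both male control 4 and female control 2, left out after seeing the data, 23 fell and 1 rose, with 14.1% of all genes lower. With an offset for gene length 22 fell (Gpx1, Gsto1, Mgst3, Msrb1, Prdx3 and Txn1 were lost) and 3 rose, Gclc, Prdx4 and Txnip, against 16.3% lower and 20.8% higher of all genes. With 1 surrogate variable (a factor estimated from the counts) in the model, none of the 41 was called, and of all 22242 genes 2 were called lower and 7 higher.

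The largest log2 falls were of Gstm1, Prdx6, Gstk1, Gstm5, Sod1 and Prdx1, from -1.19 to -0.84. Gstm1, a cytosolic glutathione S-transferase, had 330.1 ± 141 CPM per kilobase of exon (SD, n = 8 control libraries), more than any other of the 41 genes. Prdx6 (144 ± 55.6), Prdx5 (129 ± 21.6) and Gpx1 (117 ± 20.4) followed in CPM per kilobase, with differences smaller than their SDs. Txnip (1.38 ± 0.286) and Gss (1.46 ± 0.224) were the lowest on this scale, again within their SDs of each other.

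**Figure D1:**
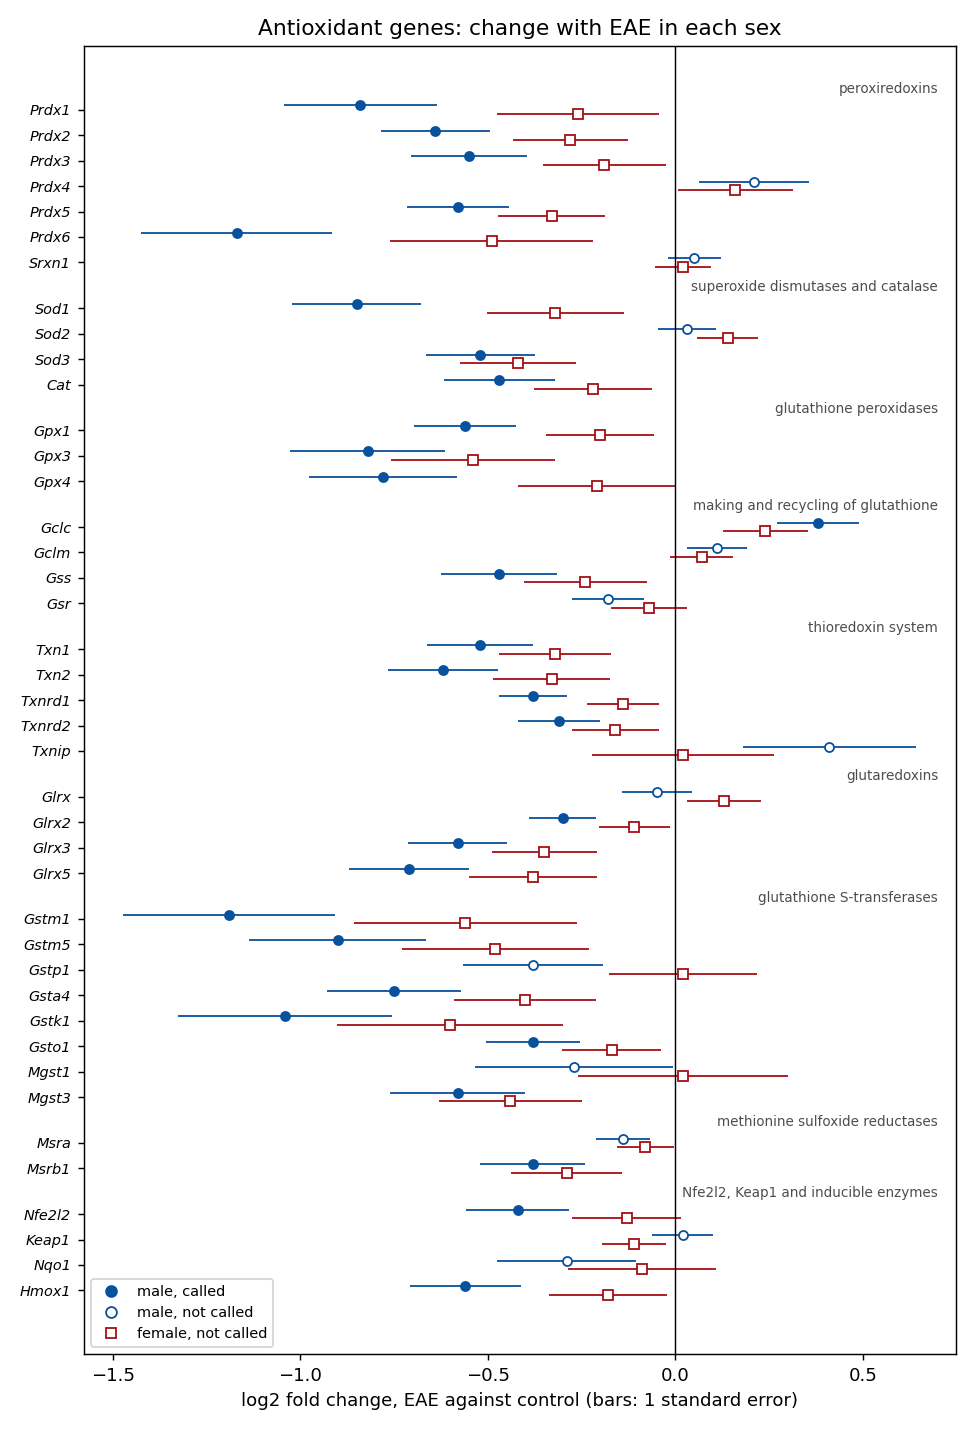
Log2 fold change of each of the 41 genes, EAE against control, in males (circles) and females (squares), with bars of 1 standard error and genes in blocks by role. Filled symbols passed the test: 28 male values below 0 and 1 above (Gclc), and no female value.

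Many of these genes are known NRF2 targets, which NRF2 reaches through the antioxidant response element. Its core, TGACNNNGC, was searched on both strands in RefSeq promoter windows (GRCm38.p6) from 250 bases before to 50 bases after each start. Of the 34 of the 41 genes with a window, 8 held it (23.5%), against 14.0% of 27025 genes, and 12.4% of the 32851 windows. Among genes with the core 5 fell in males and 3 did not pass, and among those without it 19 fell and 7 did not pass. Gclc, the only gene called higher in males, had no window and was not searched. The same held for Prdx6, Sod3, Gsr, Gsta4, Hmox1 and Msra. To let the promoters of genes that fell be set beside those of genes that did not, the core is shown for the 7 genes that hold it before the start, with 10 bases on each side, on the gene's strand (minus for Nfe2l2, plus for the others), with the core in capitals; GC at the left end of the capitals marks a core on the other strand.
Prdx1, chr4:116685456-116685484: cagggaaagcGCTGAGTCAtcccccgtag
Sod1, chr16:90220696-90220724: gccaaggtggGCGTGGTCAgactcaggcc
Gstm5, chr3:107895802-107895830: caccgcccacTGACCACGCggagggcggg
Txnrd1, chr10:82859104-82859132: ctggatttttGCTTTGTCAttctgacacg
Nfe2l2, chr2:75704885-75704913: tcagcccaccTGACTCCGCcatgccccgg
Gclm, chr3:122245413-122245441: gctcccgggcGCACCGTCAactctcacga
Mgst1, chr6:138140461-138140489: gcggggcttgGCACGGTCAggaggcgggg
The first 5 belong to genes that fell in males and the last 2 to genes that did not pass. The Prdx1 core overlaps TGACTCA, the recognition sequence of AP-1 factors, and the others do not. A match of letters is a description and shows no binding.

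Of the peroxiredoxins and sulfiredoxin (7 genes), 5 fell in males, each with no overlap between the groups. Gene positions here and below are of GRCm38, from GENCODE M21. Prdx6 (ENSMUSG00000026701, chromosome 1 from 161240112 to 161251219) had 717, 528, 638 and 1188 CPM in the 4 male control libraries and 347, 334, 461, 249 and 311 CPM in the 5 male EAE libraries. Prdx6, a peroxiredoxin that also acts as a phospholipase, thus fell with a log2 fold change of -1.17 ± 0.255 (SE; adjusted p = 0.00542 by edgeR). Even its highest EAE value, in male EAE 3, lay below the lowest control. In females Prdx6 had 459, 999, 539.7 and 463 CPM in controls and 586, 360.0, 329 and 477 CPM in EAE (log2 fold change -0.49 ± 0.270, SE; adjusted p = 0.307 by edgeR). Female control 2 was alone at the top and the other libraries overlapped. Prdx1 (ENSMUSG00000028691, chromosome 4 from 116685544 to 116700822) had 68.8, 55.1, 63.04 and 112 CPM in the 4 male control libraries and 41.4, 42.4, 51.5, 34.6 and 39.2 CPM in the 5 male EAE libraries. All EAE values of Prdx1, a cytosolic peroxiredoxin, lay below the controls, with a log2 fold change of -0.84 ± 0.203 (SE; adjusted p = 0.00674 by edgeR), -0.56 without male control 4. In females Prdx1 had 54.1, 92.4, 51.3 and 53.6 CPM in controls and 64.4, 47.3, 41.05 and 57.1 CPM in EAE (log2 fold change -0.26 ± 0.215, SE; adjusted p = 0.499 by edgeR). Again female control 2 was the high value. Cytosolic Prdx2 fell by 0.64, Prdx5 by 0.58 and mitochondrial Prdx3 by 0.55 on the log2 scale. Prdx4 of the endoplasmic reticulum (0.21, adjusted p = 0.290 by edgeR) and Srxn1, which reactivates over-oxidized peroxiredoxins (0.05, adjusted p = 0.645), were not called. Srxn1 averaged 216 ± 5.89 CPM (SD, n = 4) in control males against 223 ± 12.7 CPM (SD, n = 5) in EAE males.

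Sod1, Sod3 and catalase fell in males, and mitochondrial Sod2 was not called. Sod1 (ENSMUSG00000022982, chromosome 16 from 90220754 to 90226329) had 119, 94.4, 108 and 171 CPM in the 4 male control libraries and 71.9, 64.5, 80.7, 55.7 and 67.6 CPM in the 5 male EAE libraries. The groups of Sod1, the cytosolic copper-zinc enzyme, did not overlap, with a log2 fold change of -0.85 ± 0.172 (SE; adjusted p = 0.00541 by edgeR). In females Sod1 had 104, 132, 77.6 and 88.1 CPM in controls and 98.98, 72.7, 66.9 and 83.8 CPM in EAE (log2 fold change -0.32 ± 0.182, SE; adjusted p = 0.326 by edgeR). The change of Sod1 was the only 1 of the 41 with an unadjusted p under 0.05 for the difference between the sexes. Sod3 (ENSMUSG00000072941, chromosome 5 from 52363791 to 52371418) had 32.2, 31.7, 33.6 and 43.97 CPM in the 4 male control libraries and 24.9, 24.6, 28.7, 22.01 and 22.7 CPM in the 5 male EAE libraries. For Sod3, the extracellular dismutase, all EAE values again lay below the controls, with a log2 fold change of -0.52 ± 0.146 (SE; adjusted p = 0.0120 by edgeR). In females Sod3 had 30.8, 43.7, 48.4 and 27.2 CPM in controls and 28.7, 29.8, 25.5 and 28.1 CPM in EAE (log2 fold change -0.42 ± 0.155, SE; adjusted p = 0.196 by edgeR). This was the smallest adjusted p of the 41 genes in females. Catalase (Cat) of peroxisomes fell by 0.47 on the log2 scale in males, and did not pass without male control 4 (-0.33, adjusted p = 0.116 by edgeR). Sod2 averaged 148 ± 15.1 CPM (SD, n = 4) in control males against 151 ± 8.45 CPM (SD, n = 5) in EAE males. In females Sod2 was the only gene of the 41 whose groups did not overlap, with 148, 149, 135 and 139 CPM in controls and 152, 155, 169 and 153 CPM in EAE, as for 3.99% of all genes in that direction. Its log2 fold change of 0.14 was not called (adjusted p = 0.342 by edgeR).

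**Figure D2:**
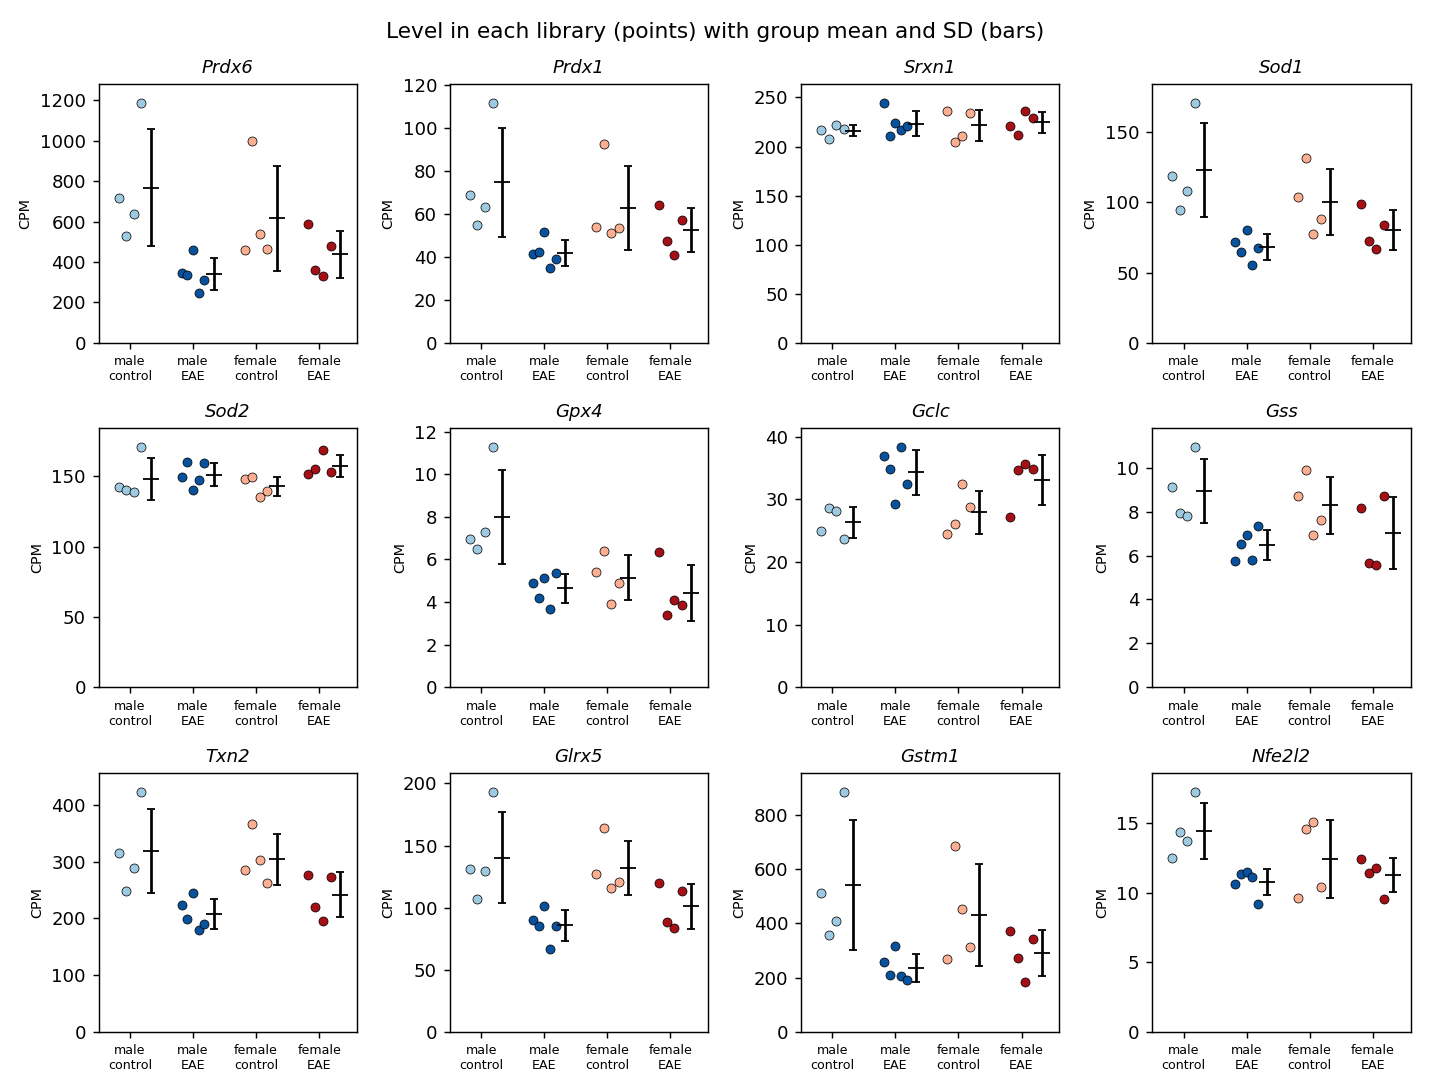
CPM of 12 of the genes in each library (points), with the mean and SD of each group beside them (bars), axes starting at 0. Male EAE points lie below all male control points for Prdx6, Prdx1, Sod1, Gpx4, Gss, Txn2, Glrx5, Gstm1 and Nfe2l2, and above them for Gclc.

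The 3 glutathione peroxidases fell in males. Gpx3 (ENSMUSG00000018339, chromosome 11 from 54902453 to 54910377) had 23.6, 16.4, 22.2 and 30.8 CPM in the 4 male control libraries and 15.5, 12.3, 17.6, 10.1 and 10.1 CPM in the 5 male EAE libraries. For the secreted Gpx3, 4 of the 5 EAE values lay below every control and male EAE 3 overlapped, with a log2 fold change of -0.82 ± 0.207 (SE; adjusted p = 0.00752 by edgeR). In females Gpx3 had 22.7, 30.7, 28.2 and 17.1 CPM in controls and 17.4, 15.9, 13.2 and 21.5 CPM in EAE (log2 fold change -0.54 ± 0.219, SE; adjusted p = 0.211 by edgeR). Gpx4 (ENSMUSG00000075706, chromosome 10 from 80047166 to 80056439) had 6.95, 6.51, 7.27 and 11.3 CPM in the 4 male control libraries and 4.90, 4.21, 5.10, 3.66 and 5.35 CPM in the 5 male EAE libraries. Gpx4, which removes lipid peroxides and thereby restrains ferroptosis, had no overlap between the groups, with a log2 fold change of -0.78 ± 0.197 (SE; adjusted p = 0.00764 by edgeR). In females Gpx4 had 5.40, 6.41, 3.90 and 4.88 CPM in controls and 6.36, 3.41, 4.11 and 3.87 CPM in EAE (log2 fold change -0.21 ± 0.210, SE; adjusted p = 0.575 by edgeR). Male control 4 alone was at 11.3 CPM. In controls every female value of Gpx4 lay below every male value (log2 fold change -0.63, unadjusted p = 0.00676), but the difference was not called (adjusted p = 0.830 by edgeR). The level of Gpx4 was 3.81 CPM per kilobase in controls, and the annotation names a pseudogene copy, so its count is uncertain. Cytosolic Gpx1 fell by 0.56 on the log2 scale, without overlap between the groups, but by 0.23, under the limit, with a gene length offset.

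Glutathione is made from cysteine, glutamate and glycine by glutamate-cysteine ligase (the catalytic Gclc and the modifier Gclm) and then glutathione synthetase (Gss), and reduced again by glutathione reductase (Gsr). Here Gclc rose in males and Gss fell. Gclc (ENSMUSG00000032350, chromosome 9 from 77754535 to 77794485) had 24.9, 28.6, 28.2 and 23.7 CPM in the 4 male control libraries and 36.9, 34.8, 29.3, 38.3 and 32.5 CPM in the 5 male EAE libraries. Every EAE value of Gclc lay above every control, with a log2 fold change of 0.38 ± 0.109 (SE; adjusted p = 0.0132 by edgeR). In females Gclc had 24.5, 26.1, 32.4 and 28.7 CPM in controls and 27.1, 34.6, 35.6 and 34.8 CPM in EAE (log2 fold change 0.24 ± 0.114, SE; adjusted p = 0.249 by edgeR). In females 3 of the 4 EAE values lay above every control and female EAE 1 was low. Gss (ENSMUSG00000027610, chromosome 2 from 155563181 to 155592810) had 9.13, 7.94, 7.79 and 10.9 CPM in the 4 male control libraries and 5.76, 6.52, 6.94, 5.81 and 7.37 CPM in the 5 male EAE libraries. The groups of Gss did not overlap, with a log2 fold change of -0.47 ± 0.154 (SE; adjusted p = 0.0267 by edgeR), but it did not pass without male control 4 (-0.34, adjusted p = 0.134). In females Gss had 8.69, 9.92, 6.95 and 7.60 CPM in controls and 8.16, 5.66, 5.56 and 8.73 CPM in EAE (log2 fold change -0.24 ± 0.163, SE; adjusted p = 0.406 by edgeR). Gclm and Gsr had log2 fold changes of 0.11 and -0.18 in males and were not called.

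In the thioredoxin system 4 of 5 genes fell in males. Txn2 (ENSMUSG00000005354, chromosome 15 from 77915047 to 77929006) had 315, 248, 289 and 423 CPM in the 4 male control libraries and 223, 198, 245, 179 and 189.6 CPM in the 5 male EAE libraries. Txn2, the mitochondrial thioredoxin, had no overlap between the groups, with a log2 fold change of -0.62 ± 0.146 (SE; adjusted p = 0.00619 by edgeR). In females Txn2 had 284, 367, 302 and 262 CPM in controls and 276, 221, 195 and 273 CPM in EAE (log2 fold change -0.33 ± 0.155, SE; adjusted p = 0.245 by edgeR). Txn1 (ENSMUSG00000028367, chromosome 4 from 57943373 to 57956411) had 36.8, 31.3, 31.3 and 47.1 CPM in the 4 male control libraries and 27.9, 24.4, 30.2, 21.5 and 23.6 CPM in the 5 male EAE libraries. Txn1, the cytosolic thioredoxin, fell without overlap, with a log2 fold change of -0.52 ± 0.141 (SE; adjusted p = 0.0104 by edgeR). With a gene length offset its log2 fold change was -0.18 and it was not called. In females Txn1 had 34.4, 46.6, 39.2 and 33.5 CPM in controls and 33.7, 29.3, 24.96 and 35.2 CPM in EAE (log2 fold change -0.32 ± 0.149, SE; adjusted p = 0.246 by edgeR). The cytosolic reductase Txnrd1 fell by 0.38 on the log2 scale with no overlap between the groups, and the mitochondrial Txnrd2 by 0.31, with overlap. Txnip, which binds and inhibits thioredoxin, averaged 4.30 ± 0.816 CPM (SD, n = 4) in control males against 5.72 ± 1.76 CPM (SD, n = 5) in EAE males and was not called (log2 fold change 0.41, adjusted p = 0.178 by edgeR). It varied widely between EAE males: male EAE 2 and 3 had 7.51 and 7.70 CPM and the other EAE males 3.91 to 4.94 CPM.

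Glutaredoxins, small proteins that reduce disulfides with glutathione, fell for 3 of 4 genes, each without overlap. Glrx5 (ENSMUSG00000021102, chromosome 12 from 105032688 to 105042906) had 131, 107, 129 and 193 CPM in the 4 male control libraries and 90.2, 85.5, 101, 66.8 and 85.1 CPM in the 5 male EAE libraries. Glrx5 of mitochondria, which takes part in iron-sulfur cluster assembly, fell with a log2 fold change of -0.71 ± 0.160 (SE; adjusted p = 0.00565 by edgeR). In females Glrx5 had 127, 164, 116 and 121 CPM in controls and 119.9, 88.2, 83.5 and 113 CPM in EAE (log2 fold change -0.38 ± 0.170, SE; adjusted p = 0.234 by edgeR). Glrx3 (ENSMUSG00000031068, chromosome 7 from 137437614 to 137468594) had 15.3, 12.4, 13.8 and 19.5 CPM in the 4 male control libraries and 10.4, 9.41, 11.2, 9.22 and 10.5 CPM in the 5 male EAE libraries. Glrx3, a multidomain cytosolic glutaredoxin that handles iron-sulfur clusters, fell with a log2 fold change of -0.58 ± 0.132 (SE; adjusted p = 0.00565 by edgeR). In females Glrx3 had 13.4, 16.8, 14.4 and 12.03 CPM in controls and 12.8, 10.6, 9.34 and 11.7 CPM in EAE (log2 fold change -0.35 ± 0.140, SE; adjusted p = 0.208 by edgeR). Glrx2 fell by 0.30 on the log2 scale, and by 0.18 without male control 4, which was under the limit (adjusted p = 0.116 by edgeR). Glrx was not called (-0.05).

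Of the 8 glutathione S-transferases, which couple glutathione to reactive compounds, 6 fell in males and none rose. Gstm1 (ENSMUSG00000058135, chromosome 3 from 108012255 to 108017973) had 514, 359, 407 and 886 CPM in the 4 male control libraries and 257, 211, 318, 205 and 193 CPM in the 5 male EAE libraries. The EAE and control values of Gstm1 did not overlap, with a log2 fold change of -1.19 ± 0.282 (SE; adjusted p = 0.00621 by edgeR), -0.83 without male control 4. In females Gstm1 had 270.1, 687, 454 and 312 CPM in controls and 373, 271, 182 and 343 CPM in EAE (log2 fold change -0.56 ± 0.298, SE; adjusted p = 0.292 by edgeR). Among females, control 2 was highest and the groups overlapped. Gstk1 (ENSMUSG00000029864, chromosome 6 from 42245935 to 42250447) had 5.70, 4.93, 4.94 and 7.89 CPM in the 4 male control libraries and 2.54, 2.81, 3.78, 2.1704 and 2.96 CPM in the 5 male EAE libraries. Gstk1, found in mitochondria and peroxisomes, fell with a log2 fold change of -1.04 ± 0.285 (SE; adjusted p = 0.0111 by edgeR). In females Gstk1 had 4.04, 10.3, 3.44 and 3.70 CPM in controls and 5.04, 3.03, 3.33 and 2.77 CPM in EAE (log2 fold change -0.60 ± 0.302, SE; adjusted p = 0.268 by edgeR). Its female change was the most negative of the 41 genes, and female control 2 alone held 10.3 CPM. Gstm5 fell by 0.90, Gsta4, which acts on lipid peroxidation products, by 0.75, the microsomal Mgst3 by 0.58 and Gsto1 by 0.38 on the log2 scale. Gstp1 (-0.38, adjusted p = 0.122) and Mgst1 (-0.27, adjusted p = 0.463) were not called by edgeR. Gstp1 has a near-identical copy, Gstp2, so its count is uncertain, and Gstm family members share sequence.

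NRF2 itself, encoded by Nfe2l2, fell in males and its inhibitor Keap1 was not called. Nfe2l2 (ENSMUSG00000015839, chromosome 2 from 75675513 to 75704641) had 12.5, 14.3, 13.7 and 17.2 CPM in the 4 male control libraries and 10.7, 11.4, 11.5, 11.1 and 9.17 CPM in the 5 male EAE libraries. EAE and control values of Nfe2l2 did not overlap, with a log2 fold change of -0.42 ± 0.137 (SE; adjusted p = 0.0243 by edgeR). Without male control 4 it did not pass (-0.31, adjusted p = 0.126). In females Nfe2l2 had 9.60, 14.6, 15.05 and 10.4 CPM in controls and 12.4, 11.4, 11.7 and 9.57 CPM in EAE (log2 fold change -0.13 ± 0.146, SE; adjusted p = 0.622 by edgeR). Keap1 (ENSMUSG00000003308, chromosome 9 from 21229730 to 21239361) had 85.8, 115, 99.7 and 88.7 CPM in the 4 male control libraries and 103, 100.1, 94.6, 97.5 and 97.6 CPM in the 5 male EAE libraries. The Keap1 groups overlapped, with a log2 fold change of 0.02 (adjusted p = 0.888 by edgeR). In females Keap1 had 95.2, 100.2, 103 and 95.9 CPM in controls and 92.8, 86.8, 88.9 and 96.4 CPM in EAE (log2 fold change -0.11 ± 0.0857, SE; adjusted p = 0.465 by edgeR). Hmox1 (ENSMUSG00000005413, chromosome 8 from 75093621 to 75100589) had 9.85, 6.54, 8.22 and 10.99 CPM in the 4 male control libraries and 5.99, 5.99, 7.16, 5.61 and 5.43 CPM in the 5 male EAE libraries. Hmox1, the inducible heme oxygenase, fell with a log2 fold change of -0.56 ± 0.148 (SE; adjusted p = 0.00940 by edgeR), and male EAE 3 overlapped the controls. In females Hmox1 had 8.42, 8.82, 8.12 and 7.37 CPM in controls and 8.69, 6.42, 5.73 and 7.97 CPM in EAE (log2 fold change -0.18 ± 0.156, SE; adjusted p = 0.511 by edgeR). Nqo1, an NRF2-inducible quinone reductase, was not called (-0.29, adjusted p = 0.239). Of the methionine sulfoxide reductases, Msrb1 (ENSMUSG00000075705, chromosome 17 from 24736642 to 24742778) had 37.9, 31.3, 36.2 and 46.9 CPM in the 4 male control libraries and 33.4, 28.3, 32.8, 26.05 and 25.4 CPM in the 5 male EAE libraries. For Msrb1, a selenoprotein, 3 of the 5 EAE values lay below every control, with a log2 fold change of -0.38 ± 0.140 (SE; adjusted p = 0.0417 by edgeR). It was not called with a gene length offset (-0.05). In females Msrb1 had 34.8, 46.4, 42.2 and 37.9 CPM in controls and 39.3, 28.99, 25.8 and 38.2 CPM in EAE (log2 fold change -0.29 ± 0.148, SE; adjusted p = 0.279 by edgeR). Msra was not called (-0.14).

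In female mice none of the 41 genes was called by edgeR (0.0584% of all genes were, 0.0225% lower and 0.036% higher), and none by DESeq2, which called 6.09% of all genes, or by limma voom, which called 0 of all genes. Log2 fold changes ranged from -0.60 (Gstk1) to 0.24 (Gclc), with a median of -0.20 against 0.00 over all genes, and 32 were negative. At an unadjusted p under 0.05 there were 10 (24.4%), against 19.8% of all genes, and 11 by DESeq2 and 10 by limma voom. Of these 9 were lower (Sod3, Glrx3, Gpx3, Prdx5, Mgst3, Glrx5, Txn2, Txn1 and Gsta4) and 1 higher (Gclc). The median went to -0.09 without female control 2, where no gene was under that p, and to -0.31 without female EAE 1, where 19 were. Without female EAE 4 or female EAE 3 there were 1 and 3 under that p, and the median was 0.0164 with 1 surrogate variable.

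The difference between the sexes in the change with EAE passed for none of the 41 genes, nor for any of the 22242, by edgeR. The change was less negative or more positive in females for 35 of 41, with a median difference of 0.24 in log2 fold change, 0.107 without male control 4, 0.354 without female control 2 and 0.00407 with 1 surrogate variable. Only Sod1 had an unadjusted p under 0.05 (1 of 41 or 2.44%, against 4.19% of all genes; 1 by DESeq2 and 0 by limma voom). Leaving out 1 library at a time, this count ran from 0, as without male control 4, to 11 without female control 2, with 8 without male control 2 and 6 without female EAE 4. For Sod1 the difference was 0.54 ± 0.2503 (SE; adjusted p = 0.807 by edgeR). The falls called in males and not in females are thus not shown to differ between the sexes. Between control females and control males none was called either (0.0674% of all genes were, 0.0495% lower and 0.018% higher in females). Of the 41 genes only Gpx4 was under an unadjusted p of 0.05, against 4.70% of all genes, and DESeq2 and limma voom each gave 1, while 8 genes were under it without female control 2 and 6 with 1 surrogate variable. It was also the only 1 whose control groups did not overlap, lower in females as for 1.24% of all genes, while 1.16% were higher.

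Of the 28 genes that fell, 23 had their highest level in male control 4 and 17 their lowest in male EAE 4. Their median log2 CPM, relative to each gene's mean over the 17 libraries, was 0.630 in male control 4 and 0.473 in female control 2. It was -0.506 in male EAE 4, with the other male EAE libraries from -0.383 to -0.0649. These 28 genes were picked as lower in male EAE, so low medians in that group follow from the choice. The female EAE libraries ran from -0.390 (female EAE 4) to 0.130 (female EAE 1). Gclc had the reverse order, with male control 4 its lowest and male EAE 4 its highest library. Markers of astrocytes moved in the same direction as the 28 genes: 9 of 12 fell in males (median log2 fold change -0.64) and none was called in females (-0.48, with 6 under an unadjusted p of 0.05). Their summed level was 13251 to 19903 CPM in male control and 8684 to 11303 CPM in male EAE mice, without overlap. It was 9039.7 to 17551 CPM in female control and 8694 to 10844 CPM in female EAE mice. No astrocyte marker was at 0, and male control 4 and female control 2 had the highest sums of the 17 libraries. Of 12 neuron markers 5 rose and 1 fell in males, and of 12 oligodendrocyte markers 5 rose and 0 fell. Over all genes tested 19.2% were called higher and 20.4% lower in males. The slope of log2 CPM on log2 exon length also separated the male groups, from -0.176 to 0.0250 in controls and from 0.0269 to 0.141 in EAE. Gene length was looked at only with the length offset, where 22 of the 41 genes fell instead of 28. On the log2 scale the male median of the 41 then moved from -0.472 to -0.279, and that of all genes from 0.0249 to 0.0914. The part of the astrocyte RNA in these falls was not tested.

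**Figure D3:**
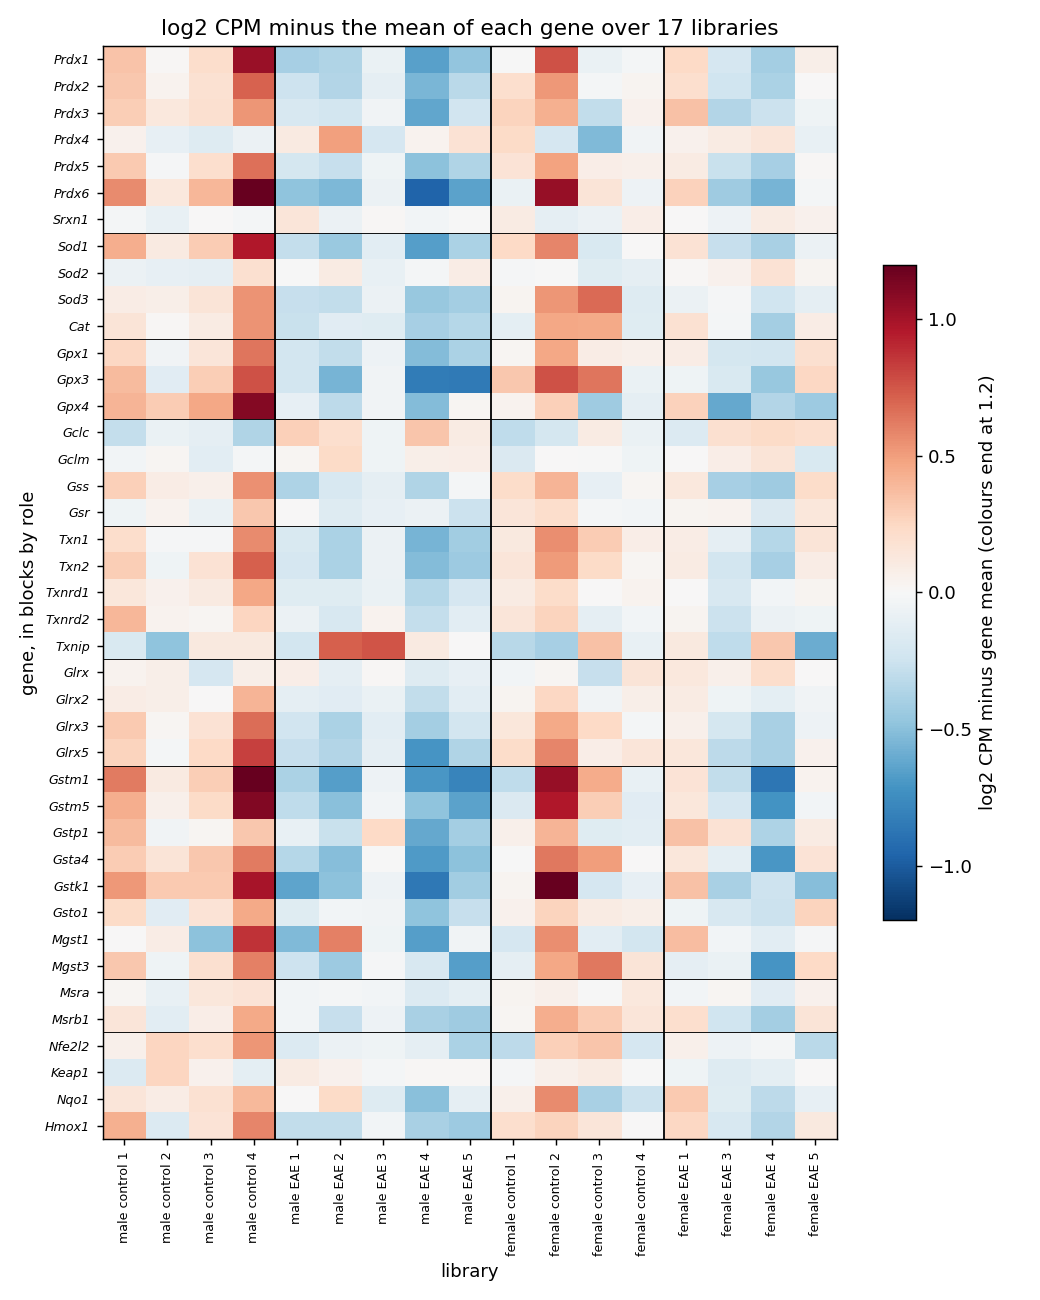
Log2 CPM minus the mean of each gene over the 17 libraries, for the 41 genes in blocks by role and the libraries in order of group (red above the mean, blue below). Male control 4 and female control 2 are red and male EAE 4 is blue for most genes, while Srxn1, Sod2, Gclm and Keap1 stay pale.

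**Figure D4:**
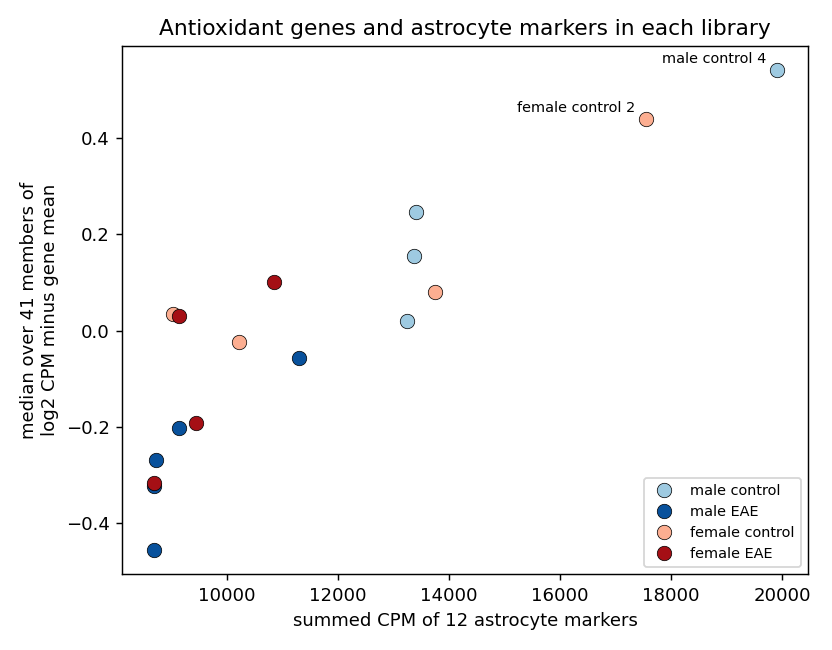
Median over the 41 genes of log2 CPM minus the gene mean (vertical) against the summed CPM of 12 astrocyte markers (horizontal), 1 point a library, coloured by group. Male control 4 is highest on both axes and male EAE 4 is lowest on the vertical axis.

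Genes around these enzymes, from lists chosen with earlier results known, also fell in males, where 20.4% of all genes tested were called lower and 19.2% higher. Of 37 other genes of the glutathione and thioredoxin systems 16 fell and 2 rose (43.2% and 5.41%), among them nucleoredoxin (Nxn, -1.28) and Gstt3 (-0.89) downward and the glutamate and cysteine transporter Slc1a1 (0.66) upward in log2 fold change. All 10 NADPH supply genes called were lower, of 13 tested, led by mitochondrial Idh2 (-1.04) and the pentose phosphate enzymes Pgls (-0.75) and Taldo1 (-0.69). Of 23 other oxidative stress genes 11 fell (47.8%), with the metallothioneins Mt2 (-1.47), Mt1 (-1.31) and Mt3 (-1.24) furthest. The 4 that rose (17.4%, near the share of all genes) were led by Oxr1 (0.82) and the repressors Bach2 (0.64) and Bach1 (0.50). Of 21 selenoproteins 13 fell and 2 rose, and the 6 among the 41 genes all fell. Of the 15 selenoproteins not among the 41 genes 7 fell and 2 rose. Dio2, which activates thyroid hormone, had a log2 fold change of -1.07, and the 2 that rose were Selenoi (0.93) and Selenot (0.38). In females Dio2 had -0.99 and Selenoi 0.6, neither of them called. Of 18 NRF2 targets 10 fell and 2 rose, and of the 10 not among the 41 genes 7 fell (Ftl1 -0.73) and 1 rose (Abcc1 0.47). In females no gene of these 5 lists was called.

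**Figure D5:**
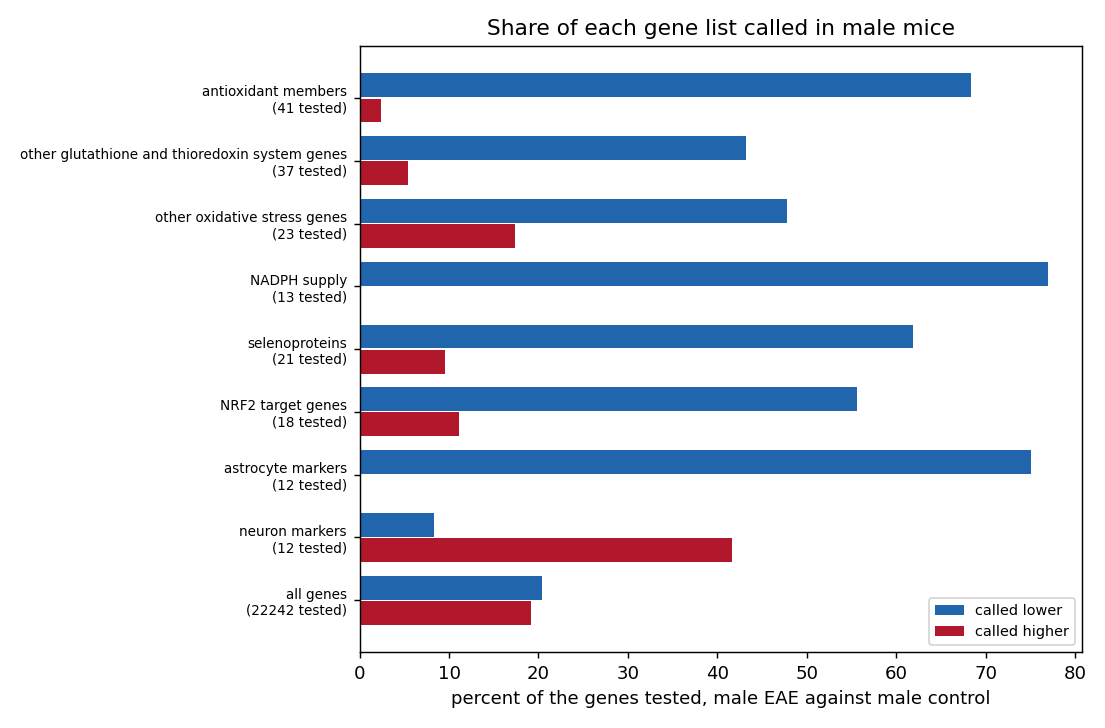
Percent of the genes tested in each list that were called lower or higher in male EAE against male control mice, with all 22242 genes for comparison. The 41 antioxidant genes have 68.3% lower and 2.44% higher, against 20.4% and 19.2% of all genes.

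Strand use and the gene models of the authors' counting are not given in the sources used here. By GENCODE M21, exons of Prdx2, Prdx5, Gss, Gclm, Txnip, Gstm5 and Keap1 overlap a gene on the other strand (for Prdx2, Junb and Rnaseh2a), and Gclm also one on its own strand. Prdx6 has a named pseudogene copy. The values of these genes are uncertain to that extent.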

How the data were processed

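The study pulled down HA-tagged ribosomes of cortical neurons, sequenced polyA RNA with the KAPA Stranded kit, demultiplexed with bcl2fastq 2.17 (per the submitters' processing notes), checked with FastQC, trimmed with Trimmomatic, and used QuasR for alignment to mm10 and gene counts. The deposited table holds the authors' raw counts, not normalized; 37607 of 39017 rows matched a symbol and exon length in GENCODE M21. Genes with under 1 count in more than 50% of the 17 libraries were dropped, as the study did, leaving 22242. EdgeR 4.0.16 (R 4.3.3) fitted 1 mean per group with TMM scaling and quasi-likelihood tests; genes were called at an adjusted p (Benjamini-Hochberg) under 0.1 and a log2 fold change beyond 0.25. Levels are CPM from TMM-scaled library sizes. Alternatives used DESeq2 1.42.0, limma 3.58.1 and sva 3.50.0. The script was tested on simulated data.

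The members and lists were chosen with earlier results of these data known. Values in every library are given for up to 2 called genes of largest change per role and direction, for genes called against their role, for genes with an unadjusted p under 0.05 for the difference between the sexes, and for Nfe2l2, Keap1, Gpx4 and Sod1; of the other lists up to 3 called genes in each direction are named. Samples were grouped by GEO's labels. No 2 libraries of the same group agreed within sampling noise, and pairs from different groups were not compared. P-values set differences between group means against the spread between mice within groups, estimated over all groups together. Counts are not independent molecules. Promoter sequences are from RefSeq.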

Additional observations from a re-analysis of the deposited data

Results flagged for a closer look

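For 11 of the 164 combinations of gene and group of libraries, 1 library lay far from the others by Dixon's test at 95%; chance flags about 1 in 20. Prdx1 was highest in female control 2, at 92.4 CPM, with the other libraries of the group at 51.3 to 54.1 CPM. Prdx6 was highest in female control 2, at 999 CPM, with the other libraries of the group at 459 to 539.7 CPM. Sod2 was highest in male control 4, at 171 CPM, with the other libraries of the group at 139 to 143 CPM. Sod3 was highest in male control 4, at 43.97 CPM, with the other libraries of the group at 31.7 to 33.6 CPM. Gpx1 was highest in female control 2, at 199.9 CPM, with the other libraries of the group at 147 to 154 CPM. Gpx4 was highest in male control 4, at 11.3 CPM, with the other libraries of the group at 6.51 to 7.27 CPM. Gclc was lowest in female EAE 1, at 27.1 CPM, with the other libraries of the group at 34.6 to 35.6 CPM. Glrx was lowest in male control 3, at 23.04 CPM, with the other libraries of the group at 27.3 to 27.8 CPM. Glrx2 was lowest in male EAE 4, at 64.1 CPM, with the other libraries of the group at 71.6 to 74.6 CPM. Gstk1 was highest in female control 2, at 10.3 CPM, with the other libraries of the group at 3.44 to 4.04 CPM. Mgst1 was highest in female control 2, at 8.04 CPM, with the other libraries of the group at 4.66 to 4.997 CPM. Female control 2 was the high library for 5 of these genes and male control 4 for 3.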

How the results depend on the processing

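In males, 28 of the 41 genes fell and 1 rose also with RLE scaling, DESeq2, limma voom, edgeR's own filter, no filter, each sex fitted alone, no fold limit and an adjusted p under 0.05. With a gene length offset 22 fell and 3 rose (Gclc, Prdx4 and Txnip), and 14 of the 29 called values moved by over 1.5 times. With 1 surrogate variable in the model 0 of the 41 were called in all, 0 fell and 0 rose, and the median log2 fold change was -0.0337. Cat (0.04), Txn1 (0.01), Gstm5 (0.07), Gsto1 (0.01) and Msrb1 (0.13) then had log2 fold changes above 0. The surrogate variable ran from -0.519 to 0.0392 in male control and from 0.0485 to 0.357 in male EAE libraries, and the cause was not tested. Leaving out 1 library at a time gave 22 to 30 called, 21 to 29 lower and 1 to 2 higher. Without male control 4 it was 21 lower, and without male EAE 1 Txnip also rose. Glrx2 and Msrb1 moved by over 1.5 times without male control 4, to -0.18 and -0.25. In females, for the difference between the sexes and between controls, none of the 41 genes was called under any alternative run, and each sex fitted alone gives no value for the latter pair. Uncalled values of up to 13 genes changed sign in females with 1 surrogate variable.

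With the replicate number as a block (14 libraries), 26 of the 41 genes fell and 1 rose in males, Gsto1 and Msrb1 being lost, and 0 were called in females, where 2 rather than 10 had an unadjusted p under 0.05. Deviations of same-numbered libraries correlated at -0.0183, 0.131, -0.278 and -0.568 in males (numbers 1 to 4) and at -0.373, 0.387 and 0.525 in females (numbers 1, 3 and 4). In neither sex was every pair over 0.1, so the libraries were taken to share only a number.

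The lowest value among the 41 genes was 1.52 CPM, and 3 counts equal 0.0305 to 0.0440 CPM in these libraries.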
